A study of Homo sapiens with 9 samples.

Results

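The genes of major histocompatibility complex (MHC) class II antigen presentation were followed in LC-2/ad, a long-established line of human lung adenocarcinoma with a CCDC6-RET fusion. The libraries came from PR1 and PR2, derivatives of the line that are resistant to ponatinib, a multi-kinase inhibitor that also acts on RET, and from the parental line. PR1 and PR2 cells were kept in 200 nM ponatinib per the labels, while no agent is stated for parental cells, so resistance and exposure to the drug cannot be told apart. Each group had 3 RNA-seq libraries, lettered A, B and C, and the labels do not state whether the letters are separate cultures. The p-values therefore read the spread among libraries and no more, and that spread may be technical.

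The 10 genes were chosen by family, after the lower CD74 level of both derivatives than of parental cells had been seen, and they stand among 24069 rows of the deposited table. They are CD74, CIITA, the row that combines HLA-DRB1 with HLA-DRB5, HLA-DRA, HLA-DMA, HLA-DMB, CTSS, IFI30, RFX5 and RFXAP. Levels are in FPKM, fragments scaled to transcript length and library size, and differences are in log2(FPKM + 1), which understates the change of low genes. Of the 10, 7 had values above 0 and reached 1 FPKM in at least 3 of the 9 libraries, the minimum for testing. HLA-DRA, HLA-DMA and HLA-DMB were listed at 0 in all 9 libraries. Because the choice used the comparisons with parental cells, those differences are given as a description, with no p-value. For these genes p-values are given only for PR2 against PR1, which is not fully independent of the choice either.

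MHC class II molecules are pairs of an alpha and a beta chain that carry peptides from endosomes to the cell surface, where CD4+ T cells read them. CD74, the invariant chain, binds new class II pairs in the endoplasmic reticulum, fills their groove and sorts them to endosomes, where proteases trim it and HLA-DM exchanges the last fragment for a peptide. The class II and CD74 promoters share a module of an X box, an X2 box and a Y box, which hold the RFX, CREB and NF-Y factors, and transcription depends on the coactivator CIITA, which those factors recruit. Professional antigen-presenting cells express the set at all times, most other cells express it after interferon-gamma, and alveolar type II cells of the lung and some tumours that derive from them also express it.

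The promoter module ties CD74 to the HLA genes, so its sequences are shown before the values. They come from RefSeq on the build GRCh38.p14, whereas the expression values rest on GRCh37, so the coordinates place the sequences only. Windows were found for 8 of the 11 gene names, with none for CIITA, HLA-DRA and CTSS. The first 250 bases before the start were searched on both strands for TGATGA, the core of the X2 box, and for ATTGG, the core of the Y box, letters chosen after the sequences had been read. TGATGA followed after 10 to 30 bases by ATTGG on either strand was present before CD74, HLA-DRB1, HLA-DRB5 and HLA-DMA. The stretches below run 5′ to 3′ on the gene's own strand, with both cores in capitals. All 4 genes lie on the minus strand, CD74 at chr5:150412944-150413012, HLA-DRB1 at chr6:32589875-32589951, HLA-DRB5 at chr6:32530358-32530434 and HLA-DMA at chr6:32953157-32953234.
CD74: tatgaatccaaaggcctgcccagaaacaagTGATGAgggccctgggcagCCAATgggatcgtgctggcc
HLA-DRB1: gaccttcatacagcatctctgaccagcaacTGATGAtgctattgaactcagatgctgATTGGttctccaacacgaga
HLA-DRB5: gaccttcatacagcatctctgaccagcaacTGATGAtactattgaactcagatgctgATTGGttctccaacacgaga
HLA-DMA: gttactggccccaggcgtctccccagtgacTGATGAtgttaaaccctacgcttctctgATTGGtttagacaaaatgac

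In CD74 the Y core lies on the opposite strand and reads CCAAT in the printed stretch, with 13 bases between the cores. The spacing is 21 bases in both HLA-DRB genes and 22 bases in HLA-DMA. This arrangement was present in 62 of 35116 promoter windows, or 0.177%, while ATTGG alone was present in 32.01% and TGATGA alone in 9.27%. HLA-DMB holds both cores outside the arrangement, IFI30 and the first of 3 RFX5 starts hold ATTGG only, and RFXAP holds neither. A match is a run of letters, not a measured site, and a missing match says only that those letters are absent from the window.

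**Figure D1:**
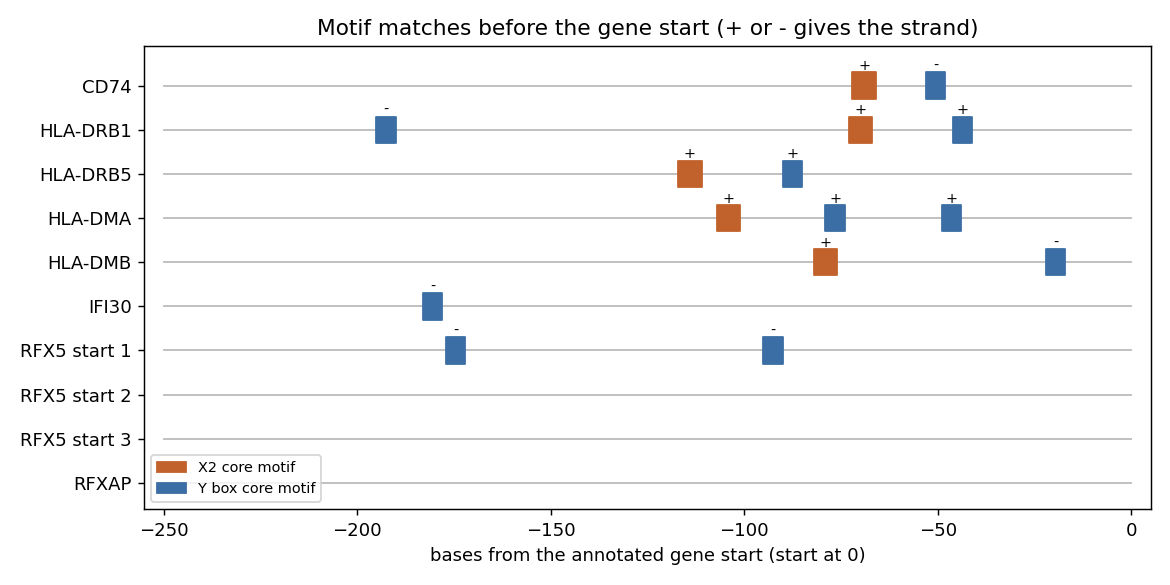
Matches to TGATGA (X2 core) and ATTGG (Y box core) along the 250 bases before each annotated start, with distance in bases on the horizontal axis and the strand of each match as a sign. CD74, HLA-DRB1, HLA-DRB5 and HLA-DMA show an X2 core with a Y core 13 to 22 bases downstream.

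Of the 24069 rows, 12011 were tested with limma over all 9 libraries, and the summed FPKM was between 571570 and 686460 per library. FPKM values keep no absolute depth, but the steps between low values put the relative depths at 0.760 to 1, and no libraries were identical. Within each group the A library was the lowest of the 3 for CD74, for CIITA and for the HLA-DRB1,HLA-DRB5 row. For the chosen class II genes that were tested, calls that changed without the 3 A libraries are therefore given. For the other gene lists below, calls without the 3 A libraries are not given, although some of their counts also changed. All 9 markers fixed for a lung adenocarcinoma line reached the minimum for testing, at different levels. KRT19 was between 1286 and 2506 FPKM in every library, EPCAM between 285.8 and 425.5 FPKM and NKX2-1 between 51.9 and 163.5 FPKM, while KRT18 was between 2.34 and 8.17 FPKM and NAPSA between 4.42 and 52.8 FPKM.

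CD74, the invariant chain, was lower in both derivatives than in parental cells, and lower in PR1 than in PR2. It had 2.83, 9.88 and 8.96 FPKM in PR1, 40.9, 67.7 and 48.9 FPKM in PR2, and 208, 284 and 253 FPKM in parental cells (libraries A, B and C). The 9 values fall into 3 separate levels with no overlap, PR1 lowest, PR2 between and parental highest. The mean was 7.22 ± 3.83 FPKM in PR1, 52.5 ± 13.7 FPKM in PR2 and 248 ± 38.5 FPKM in parental cells (SD, n = 3 each). The PR1 mean was 34.4-fold lower than the parental mean, with a log2 difference of -5.05 ± 0.36 (SE). The PR2 mean was 4.73-fold lower, with a log2 difference of -2.24 ± 0.36 (SE). Within a letter, the log2 difference of PR1 from parental cells was -5.77, -4.71 and -4.67 for A, B and C, and that of PR2 was -2.32, -2.05 and -2.35.

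CD74 differed between the derivatives. It was 7.27-fold higher in PR2 than in PR1 by group means, with a log2 difference of 2.81 ± 0.36 (SE) and an adjusted p of 0.00064 in limma with Benjamini-Hochberg adjustment. The difference was 3.45, 2.66 and 2.33 on the log2 scale within letters A, B and C, so PR2 was higher in 3 of 3. The adjusted p stayed between 0.00012 and 0.0037 over the alternatives run, which included leaving out each library in turn. As the lower CD74 of both derivatives had been seen before, this comparison is not independent of the choice of genes.

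The HLA-DRB1,HLA-DRB5 row, which holds the beta chain of HLA-DR, was the only class II chain among the 10 genes with values above 0. The value of a combined row cannot be split between its genes. Other rows that name HLA-DRB1 were listed at 0 in all 9 libraries. The row also lies in the MHC stretch, where most single-gene rows were listed at 0, as described below. How fully its values measure these genes is therefore unknown. The row had 0.318, 1.32 and 2.06 FPKM in PR1, 0.0745, 0.232 and 0.351 FPKM in PR2, and 19.7, 33.5 and 21.1 FPKM in parental cells. Every parental library was far above every derivative library, and the highest PR2 value exceeded the lowest PR1 value. The mean was 1.23 ± 0.876 FPKM in PR1, 0.219 ± 0.139 FPKM in PR2 and 24.8 ± 7.60 FPKM in parental cells (SD, n = 3 each). The PR1 mean was 20.1-fold lower than the parental mean, and the log2 difference was -3.57 ± 0.30 (SE). The PR2 mean was 113-fold lower, and the log2 difference was -4.37 ± 0.30 (SE). The row passed the minimum for testing through the parental libraries and PR1 B and C, so it had to differ from the low group.

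CD74 and the HLA-DRB1,HLA-DRB5 row had means in opposite order in the derivatives. PR2 held more CD74 than PR1, whereas its mean for the HLA-DRB1,HLA-DRB5 row was 5.64-fold lower, a log2 difference of -0.80 ± 0.30 (SE) that did not pass the test (limma adjusted p = 0.089). The log2 difference within letters was -0.29, -0.91 and -1.18, so PR2 was lower in 3 of 3. With the letter as a block the adjusted p was 0.029, without PR1 A it was 0.015, without the 3 A libraries 0.027, and with a pseudocount of 0.1 it was 0.042 for a log2 difference of -1.87. Over the alternatives in which the row was tested, the adjusted p was between 0.015 and 0.27. With only PR1 and PR2 fitted, the row missed the minimum and was not tested.

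CIITA, the coactivator on which class II transcription depends, was low in every library. It had 0.388, 0.845 and 1.31 FPKM in PR1, 0.138, 0.289 and 0.268 FPKM in PR2, and 1.19, 1.42 and 1.68 FPKM in parental cells. PR1 C lay above parental A, so PR1 and parental values overlapped, while every PR2 library was below every other library. The mean was 0.847 ± 0.460 FPKM in PR1, 0.232 ± 0.0818 FPKM in PR2 and 1.43 ± 0.245 FPKM in parental cells (SD, n = 3 each). The PR2 mean was 6.17-fold lower than the parental mean. The log2 difference from parental cells was -0.42 ± 0.18 (SE) in PR1 and -0.98 ± 0.18 (SE) in PR2. CIITA reached 1 FPKM only in parental cells and in PR1 C, so it passed the minimum through the groups where it was high.

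Between the derivatives the CIITA mean was 3.66-fold lower in PR2 than in PR1, and PR2 was lower within 3 of 3 letters. The log2 difference was -0.56 ± 0.18 (SE) and did not pass the test (limma adjusted p = 0.058). With the letter as a block the adjusted p was 0.017, without PR1 A it was 0.014, without the 3 A libraries 0.026, and with a pseudocount of 0.1 it was 0.031 for a log2 difference of -1.42. Over the alternatives in which CIITA was tested, the adjusted p was between 0.014 and 0.19. With only PR1 and PR2 fitted, CIITA missed the minimum and was not tested.

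The RFX complex that binds the X box is made of RFX5, RFXAP and RFXANK. Against parental cells its subunits did not share a direction by log2 difference. In PR2 against PR1 all 3 had log2 differences below 0 and none passed the test, with -0.32 for RFXANK (limma adjusted p = 0.19). RFX5, the DNA-binding subunit, had 11.5, 13.7 and 12.6 FPKM in PR1, 12.6, 10.8 and 11.1 FPKM in PR2, and 7.71, 8.70 and 6.56 FPKM in parental cells. All 6 derivative values were above all 3 parental values, with a log2 difference of 0.66 ± 0.15 (SE) in PR1 and 0.53 ± 0.15 (SE) in PR2. PR2 and PR1 overlapped in RFX5, and their log2 difference of -0.12 ± 0.15 (SE) did not pass the test (limma adjusted p = 0.61).

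RFXAP, the subunit that joins RFX5 to RFXANK, had 1.64, 2.11 and 2.28 FPKM in PR1, 1.19, 1.24 and 1.67 FPKM in PR2, and 2.71, 2.23 and 2.87 FPKM in parental cells. PR2 lay below parental cells with no overlap, while PR1 C lay just above parental B. The log2 difference from parental cells was -0.26 ± 0.15 (SE) in PR1 and -0.61 ± 0.15 (SE) in PR2. PR2 against PR1 gave -0.35 ± 0.15 (SE), which did not pass the test (limma adjusted p = 0.13).

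The lysosomal enzymes of the group had higher means in both derivatives than in parental cells. IFI30, the thiol reductase GILT that opens disulfide bonds of antigens in lysosomes, had 124, 81.5 and 100.04 FPKM in PR1, 83.0, 77.5 and 75.6 FPKM in PR2, and 52.2, 49.9 and 32.5 FPKM in parental cells. All 6 derivative values were above all 3 parental values, with a log2 difference of 1.17 ± 0.21 (SE) in PR1 and 0.82 ± 0.21 (SE) in PR2. PR2 against PR1 gave -0.35 ± 0.21 (SE), which did not pass the test (limma adjusted p = 0.28).

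CTSS, the cathepsin that makes the last cuts in the invariant chain, had 6.40, 8.86 and 11.9 FPKM in PR1, 5.36, 15.5 and 21.4 FPKM in PR2, and 5.84, 5.76 and 5.62 FPKM in parental cells. The parental values lay within a narrow range, every PR1 value was above them, and PR2 A was below them while PR2 B and C were the highest of all. The log2 difference from parental cells was 0.54 ± 0.39 (SE) in PR1 and 0.98 ± 0.39 (SE) in PR2. PR2 against PR1 gave 0.44 ± 0.39 (SE), which did not pass the test (limma adjusted p = 0.48). That value depended on single libraries. It was 0.97 without PR2 A (limma adjusted p = 0.021), 0.07 without PR2 C (limma adjusted p = 0.94), 0.28 without PR2 B (limma adjusted p = 0.74) and 0.24 without PR1 A (limma adjusted p = 0.77). Without the 3 A libraries it was 0.77 with an adjusted p of 0.044.

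**Figure D2:**
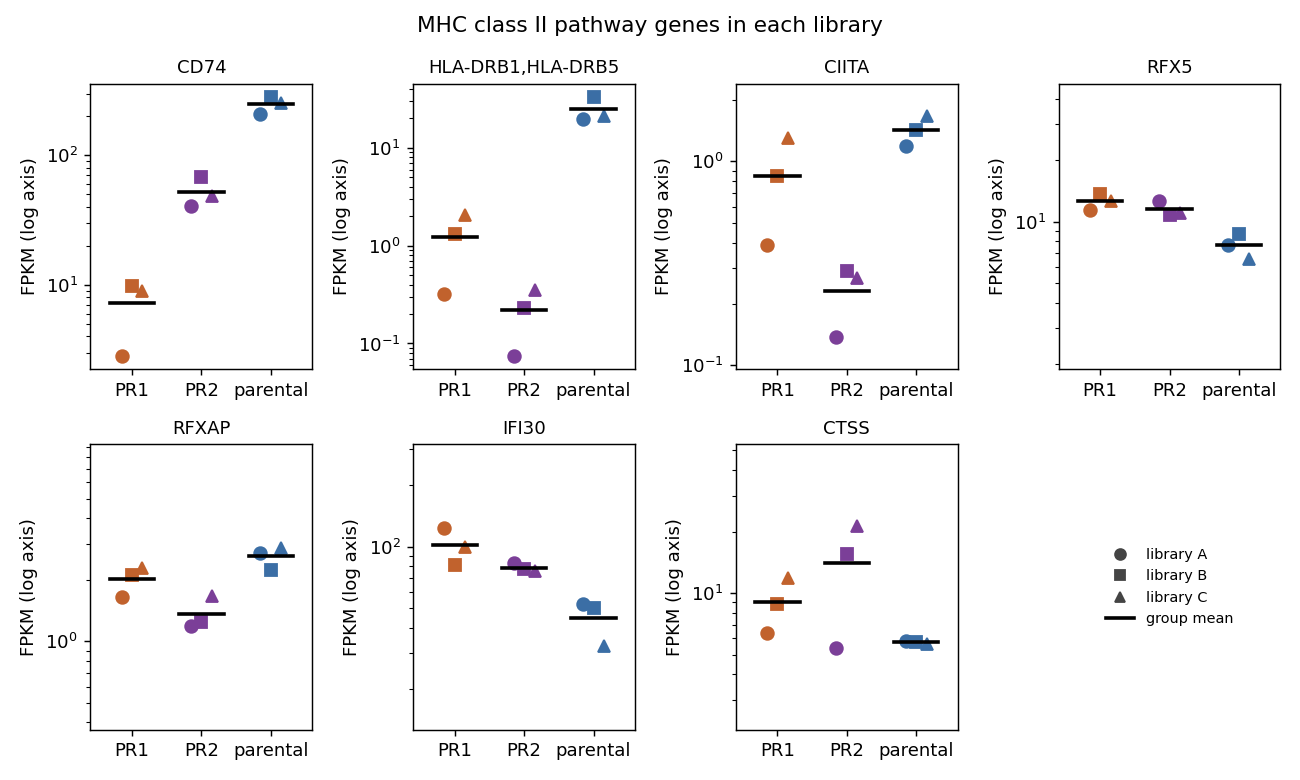
FPKM of the 7 genes with values above 0 in each library, on log axes, with groups PR1, PR2 and parental from left to right; shapes are the letters A, B and C and bars are group means. CD74 forms 3 separate levels with means of 7.22, 52.5 and 248 FPKM in PR1, PR2 and parental cells, while the HLA-DRB1,HLA-DRB5 row and CIITA are lowest in PR2.

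The 7 genes were also counted against the threshold of an adjusted p under 0.05 that was used for all rows. In the comparisons with parental cells this count repeats the values by which the genes were chosen, so nothing is read from it. In PR1 against parental cells IFI30 and RFX5 were past the threshold as higher (2 of 7, beside 7.56% of all tested rows), and CD74 and the HLA-DRB1,HLA-DRB5 row as lower (2 of 7, beside 7.98%). In PR2 against parental cells IFI30 and RFX5 were past it as higher (2 of 7, beside 13.6%), and CD74, the HLA-DRB1,HLA-DRB5 row, CIITA and RFXAP as lower (4 of 7, beside 9.83%). In PR1, RFX5 left the count without PR1 B or parental C, and CTSS entered it without the 3 A libraries. In PR2, IFI30 left it without PR2 B, PR2 C or parental C, RFXAP without PR2 B, parental C or the 3 A libraries, and RFX5 with any 1 PR2 library left out, without parental C or the 3 A libraries and under quantile normalization. CTSS entered the PR2 count when PR2 A or the 3 A libraries were left out, and with the letter as a block. With a minimum of 5 FPKM, CIITA and RFXAP were not tested. In PR2 against PR1, 1 of the 7 passed as higher, CD74, beside a background of 11.0%, and 0 passed as lower, beside a background of 8.92%. At an unadjusted limma p under 0.05, 3 were lower, CIITA, the HLA-DRB1,HLA-DRB5 row and RFXAP. That count was 0 without PR1 C, and 1 without PR1 B or without PR2 A. The share of all rows at this looser threshold was not taken, so nothing is read from the count. The median log2 difference of the 7 was -0.26 for PR1 against parental cells, -0.61 for PR2 against parental cells and -0.35 for PR2 against PR1, while the medians of all tested rows were 0.05, 0.03 and 0.0038. The comparisons share libraries, so they are not independent of each other.

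**Figure D3:**
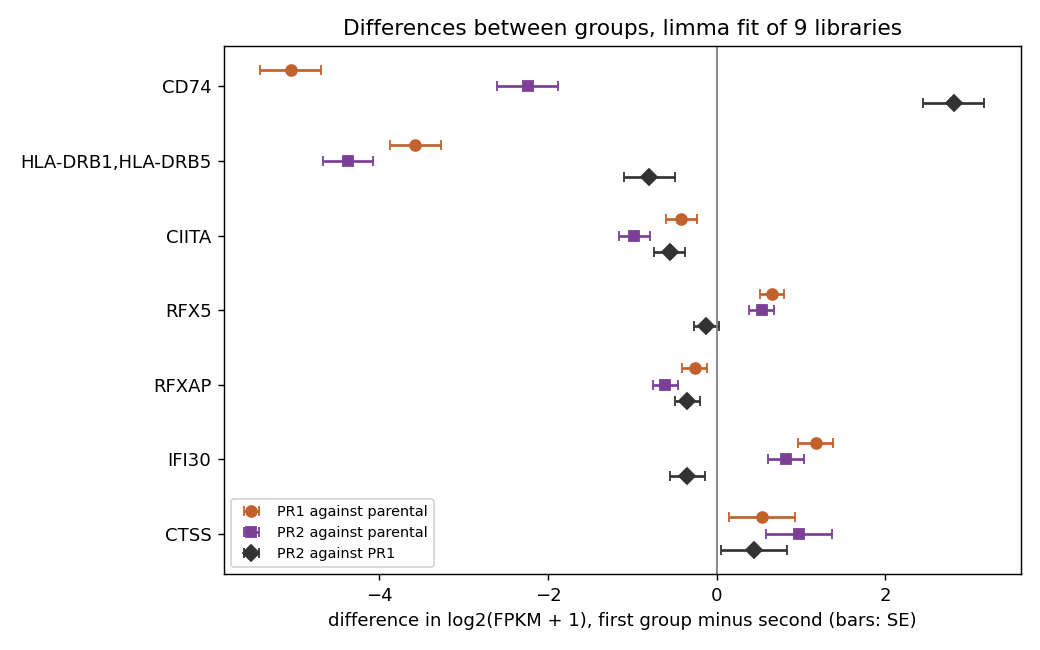
Differences in log2(FPKM + 1) for the 7 tested genes, first group minus second, with SE bars from the limma fit of 9 libraries. CD74 differs from parental cells by -5.05 in PR1 and -2.24 in PR2, whereas RFX5 and IFI30 lie above 0 in both.

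The genes also changed their proportions to each other, measured as ratios of FPKM within a library. CD74 over the HLA-DRB1,HLA-DRB5 row was 8.89, 7.49 and 4.34 in PR1, 549, 292 and 140 in PR2, and 10.5, 8.48 and 12.003 in parental cells. PR1 and parental ratios overlapped even though both genes were lower in PR1, while every PR2 ratio was above every other. The mean log2 ratio was higher by 5.41 in PR2 than in PR1. The exact two-sided permutation test gave p = 0.1, the smallest that 3 against 3 libraries allow.

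CD74 over CIITA was 7.28, 11.7 and 6.85 in PR1, 297, 234 and 182 in PR2, and 175, 200 and 151 in parental cells. Here it was PR1 that stood apart, with less CD74 per CIITA than in any PR2 or parental library. The mean log2 ratio was higher by 4.80 in PR2 than in PR1 (exact two-sided permutation p = 0.1, the smallest possible). The HLA-DRB1,HLA-DRB5 row over CIITA was 0.820, 1.56 and 1.58 in PR1, 0.541, 0.803 and 1.31 in PR2, and 16.6, 23.6 and 12.6 in parental cells. The derivatives overlapped each other in this ratio (exact two-sided permutation p = 0.2) and lay below all parental libraries. Letter A held the highest PR2 ratio of CD74 to the HLA-DRB1,HLA-DRB5 row, where the row itself was only 0.0745 FPKM.

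**Figure D4:**
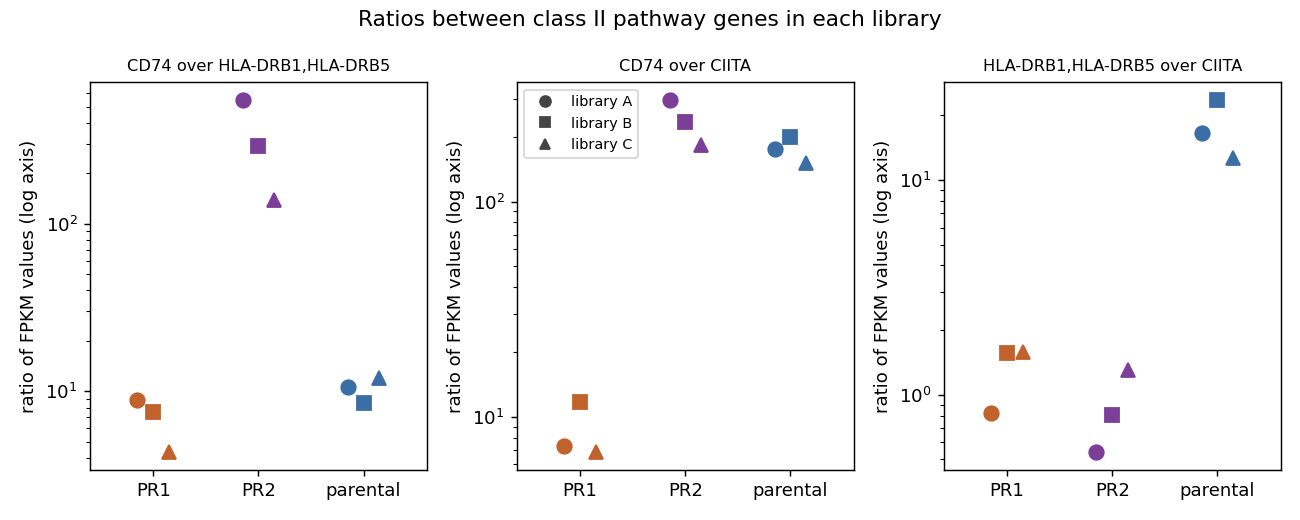
Ratios of FPKM values within each library, on log axes, with groups PR1, PR2 and parental from left to right and shapes for the letters. PR2 stands apart in CD74 over the HLA-DRB1,HLA-DRB5 row (140 to 549), PR1 stands apart in CD74 over CIITA (6.85 to 11.7), and parental cells stand apart in the HLA-DRB1,HLA-DRB5 row over CIITA (12.6 to 23.6).

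The zeros of the other class II genes cannot be read as silence. Between HLA-F and KIFC1 in the RefSeq gene order, the stretch that holds the MHC, 122 of 144 protein-coding genes had a row of their own and 120 of these, or 98.4%, were listed at 0 in all 9 libraries. Over the genome the share was 2084 of 16519 protein-coding genes, or 12.6%. TUBB, BRD2, RPS18, HLA-E, TAP1 and PSMB8, which most cells express, were among the zeros of the stretch. The single-gene rows above 0 were AGPAT1, at 29.9 to 49.2 FPKM, and HLA-DQA1. Of 30 combined rows in the stretch, 15 were above 0.

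HLA-DRA, the alpha chain of HLA-DR, and HLA-DMA and HLA-DMB, the chains of the peptide editor HLA-DM, lie in that stretch, so nothing is said of their expression. Beyond the rows of the 10 genes, 15 rows named class II chains, and 13 of them were listed at 0. Among these zeros were HLA-DRB1 alone and the rows that combine HLA-DRB1 with HLA-DRB3 and with HLA-DRB4. HLA-DQA1, an HLA-DQ alpha chain, had 0, 0.0382 and 0.0440 FPKM in PR1, 0 in all 3 PR2 libraries, and 0.145, 0.252 and 0.168 FPKM in parental cells, too low to be tested. The row that combines HLA-DOB with the peptide transporter TAP2 had 28.4, 11.8 and 18.6 FPKM in PR1, 67.6, 39.3 and 44.1 FPKM in PR2, and 32.1, 19.8 and 19.03 FPKM in parental cells. That row cannot be split between its genes.

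The gene lists from here on were chosen with earlier results of these data known. Their shares and p-values are therefore descriptions and not independent tests. Among other factors of the class II promoter, 1 of 17 tested genes was called higher and 1 lower in PR1 against parental cells, 5.88% each beside 7.56% and 7.98% of all rows. In PR2 against parental cells 1 was higher (5.88%, beside 13.6%) and 3 were lower (17.6%, beside 9.83%), and in PR2 against PR1 again 1 was higher (beside 11.0%) and 3 were lower (beside 8.92%). Medians of the list were 0.09, -0.07 and -0.06 on the log2 scale in these comparisons. NLRC5, the NOD-like receptor family coactivator of MHC class I genes, had 3.05, 2.11 and 3.33 FPKM in PR1, 4.70, 5.72 and 8.43 FPKM in PR2, and 2.26, 1.96 and 1.84 FPKM in parental cells. Every PR2 value was above every other, opposite in order to CIITA. NLRC5 rose in PR2 against parental cells by 1.24 ± 0.20 (SE, limma adjusted p = 0.0018) and against PR1 by 0.91 ± 0.20 (SE, limma adjusted p = 0.012).

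ZXDC, a zinc finger cofactor of CIITA, had 7.09, 6.79 and 7.59 FPKM in PR1, 8.35, 6.80 and 7.76 FPKM in PR2, and 11.2, 11.7 and 16.2 FPKM in parental cells. Both derivatives lay below parental cells with no overlap. ZXDC fell by 0.76 on the log2 scale in PR1 against parental cells (limma adjusted p = 0.012) and fell by 0.68 in PR2 (limma adjusted p = 0.014, and 0.059 without PR2 B). KAT2B, the acetyltransferase PCAF, fell by 0.90 in PR2 against PR1 (limma adjusted p = 0.0021). The remaining calls of the list were lost when single libraries were left out. They were CREBBP in PR1 against parental cells, KAT2B and RFXANK in PR2 against parental cells, and NFYB and HDAC1 in PR2 against PR1. RFXANK, the third RFX subunit, had a log2 difference of -0.54 ± 0.16 (SE) in PR2 against parental cells (limma adjusted p = 0.038, up to 0.13 with a library left out).

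Interferon-gamma signalling, which induces CIITA in cells outside the immune system, was followed over 15 tested genes. In PR1 against parental cells 1 was called higher and 1 lower, 6.67% each beside 7.56% and 7.98% of all rows. Against parental cells PR2 had 0 higher (beside 13.6%) and 2 lower (13.3%, beside 9.83%). In PR2 against PR1, 3 were higher (20%, beside 11.0%) and 1 was lower (6.67%, beside 8.92%), and none of these 4 calls held with each library left out in turn. The list's medians were -0.38, 0.03 and 0.03 in these comparisons. With the letter as a block, 1 was higher and 4 lower in PR1 against parental cells. The block also raised the calls over all 12011 rows in that comparison, to 1611 higher and 1477 lower. IDO1, a tryptophan-degrading enzyme induced by interferon-gamma, had 0.747, 1.79 and 1.60 FPKM in PR1, 0.144, 1.52 and 1.21 FPKM in PR2, and 10.7, 15.9 and 9.29 FPKM in parental cells. It fell by 2.44 ± 0.31 (SE) on the log2 scale in PR1 (limma adjusted p = 0.00083) and fell by 2.77 ± 0.31 (SE) in PR2 (limma adjusted p = 0.00021), both against parental cells.

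The receptor chains of that pathway had lower means in both derivatives than in parental cells. IFNGR1, the ligand-binding receptor chain, had 25.5, 26.8 and 31.0 FPKM in PR1, 30.7, 30.3 and 26.6 FPKM in PR2, and 40.8, 33.4 and 40.3 FPKM in parental cells. All 6 derivative values were below the parental ones, but IFNGR1 passed the test in none of the 3 comparisons (limma adjusted p = 0.069 for PR1 and 0.097 for PR2 against parental cells). IFNGR2, the signalling chain, had 27.4, 35.1 and 25.9 FPKM in PR1, 27.8, 49.6 and 42.2 FPKM in PR2, and 32.8, 44.7 and 50.4 FPKM in parental cells, with overlapping groups.

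IRF1, a factor that acts on the interferon-responsive CIITA promoter, had 16.1, 16.5 and 16.0 FPKM in PR1, 20.5, 29.4 and 26.5 FPKM in PR2, and 22.7, 21.3 and 22.8 FPKM in parental cells. It rose in PR2 against PR1 by 0.61 ± 0.15 (SE, limma adjusted p = 0.020, up to 0.095 with a library left out). By its means IRF1 stood with CD74, and not with CIITA, in the order of the derivatives only. Unlike CD74, its mean was not lower in PR2 (25.5 FPKM) than in parental cells (22.3 FPKM). IRF2 fell in PR2 against parental cells by 0.65 ± 0.14 (SE, limma adjusted p = 0.0067). JAK2 in PR1 against parental cells, and IRF2 and GBP1 in PR2 against PR1, passed the test but not with every library left out.

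Endolysosomal proteases and their inhibitors, which cut antigens and the invariant chain, moved in both directions. Of 22 tested genes, 3 were called higher in PR1 against parental cells (13.6%, beside 7.56% of all rows) and 5 lower (22.7%, beside 7.98%). In PR2 against parental cells 3 were higher (13.6%, as over all rows) and 4 lower (18.2%, beside 9.83%), and in PR2 against PR1, 4 were higher (18.2%, beside 11.0%) and 3 lower (13.6%, beside 8.92%). The medians were -0.13, -0.20 and -0.0023. With the letter as a block PR2 against PR1 had 5 higher and 5 lower, beside 2053 higher and 1736 lower of all 12011 rows. CTSC, the protease that activates serine proteases of immune granules, had 293, 324 and 347 FPKM in PR1, 140, 137 and 140 FPKM in PR2, and 559, 624 and 555 FPKM in parental cells. These are 3 separate levels, with PR2 lowest, the reverse of the order of CD74 in the derivatives. CTSC fell by 0.85 ± 0.14 (SE) in PR1 against parental cells (limma adjusted p = 0.0029), fell by 2.05 ± 0.14 (SE) in PR2 against parental cells (limma adjusted p = 1.04e-05) and fell by 1.20 ± 0.14 (SE) in PR2 against PR1 (limma adjusted p = 0.00036).

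CTSF, a cathepsin that can process the invariant chain in mouse macrophages, had 1.13, 5.32 and 2.79 FPKM in PR1, 1.36, 4.78 and 4.86 FPKM in PR2, and 10.5, 18.7 and 17.5 FPKM in parental cells. Unlike CTSS, it was lower in every derivative library than in every parental library. CTSF fell by 2.12 ± 0.44 (SE) in PR1 (limma adjusted p = 0.010) and fell by 1.90 ± 0.44 (SE) in PR2 (limma adjusted p = 0.011, and 0.051 without parental B). CSTA, the inhibitor cystatin A, had 0.254, 2.13 and 1.61 FPKM in PR1, 3.70, 4.43 and 3.59 FPKM in PR2, and 18.0, 66.8 and 58.3 FPKM in parental cells. CSTA fell by 4.29 ± 0.46 (SE) in PR1 (limma adjusted p = 0.00030) and fell by 3.12 ± 0.46 (SE) in PR2 (limma adjusted p = 0.0010).

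CST6, the inhibitor cystatin E/M, had 629, 390 and 251 FPKM in PR1, 1010, 1846 and 1619 FPKM in PR2, and 281, 103 and 87.3 FPKM in parental cells. CST6 rose by 3.40 ± 0.46 (SE) in PR2 against parental cells (limma adjusted p = 0.00060). NAPSA, the aspartic protease napsin A of alveolar type II cells, had 41.3, 44.3 and 52.8 FPKM in PR1, 4.42, 17.5 and 10.8 FPKM in PR2, and 9.10, 16.1 and 11.7 FPKM in parental cells. It rose by 1.85 ± 0.38 (SE) in PR1 against parental cells (limma adjusted p = 0.0094) and fell by 2.15 ± 0.38 (SE) in PR2 against PR1 (limma adjusted p = 0.0037). CST7, the inhibitor cystatin F, rose by 1.73 ± 0.31 (SE) in PR2 against PR1 (limma adjusted p = 0.0037). Of all the calls in this list, 5 of 8 in PR1 against parental cells, 6 of 7 in PR2 against parental cells and 3 of 7 in PR2 against PR1 held with each of the 9 libraries left out in turn.

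**Figure D5:**
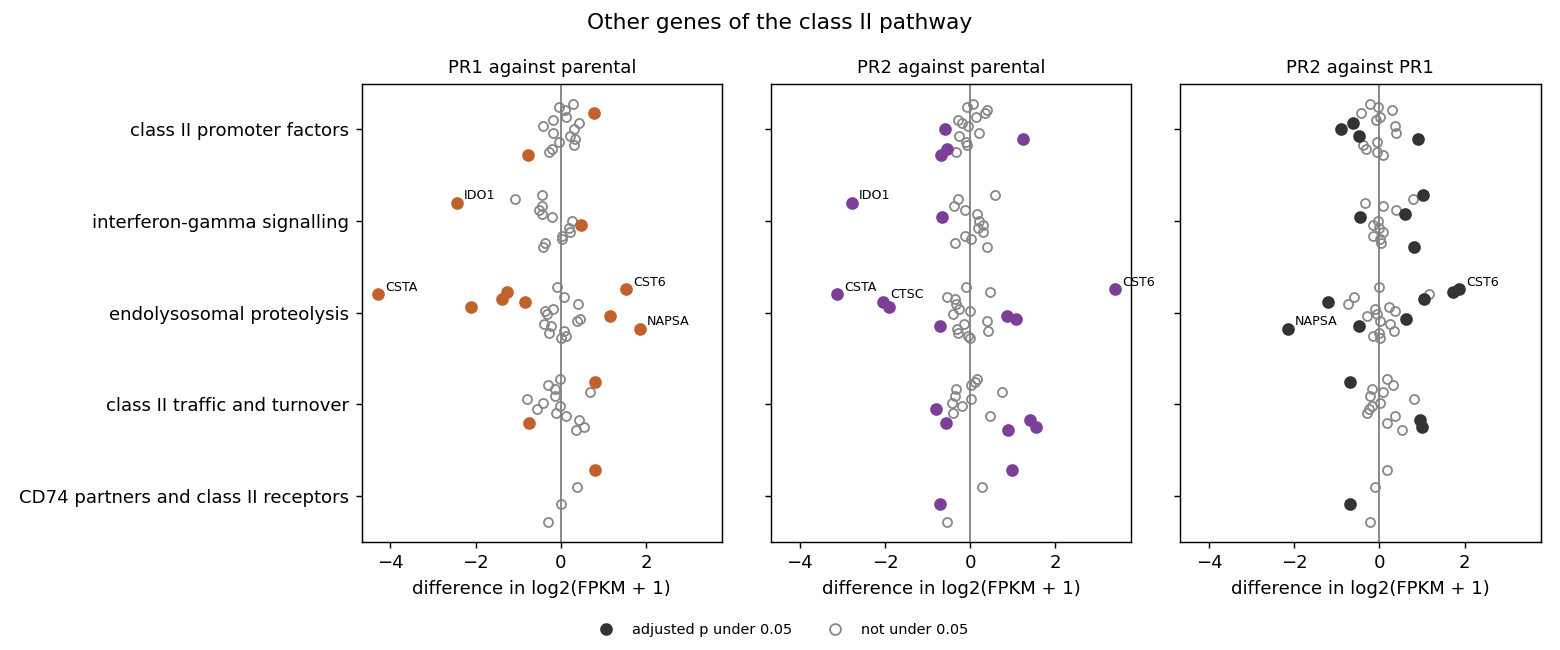
Differences in log2(FPKM + 1) for other genes of the class II pathway, 1 row of points per gene list and 1 panel per comparison; filled points passed an adjusted p of 0.05, and the labels mark some of those at 1.3 or more in size. Points lie on both sides of 0 in each list, with IDO1 and CSTA far below it in both comparisons with parental cells.

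Of 16 tested genes of class II traffic and turnover, 1 was called higher and 1 lower in PR1 against parental cells, 6.25% each beside 7.56% and 7.98% of all rows. In PR2 against parental cells 3 were higher (18.8%, beside 13.6%) and 2 lower (12.5%, beside 9.83%), and in PR2 against PR1, 2 were higher (12.5%, beside 11.0%) and 1 lower (6.25%, beside 8.92%). The medians were -0.07, 0.02 and 0.13. RILP, which links RAB7A on late endosomes to the dynein motor, had 5.60, 5.38 and 3.77 FPKM in PR1, 11.7, 10.7 and 9.77 FPKM in PR2, and 2.10, 3.45 and 3.59 FPKM in parental cells. RILP rose by 1.55 ± 0.19 (SE) in PR2 against parental cells (limma adjusted p = 0.00038) and rose by 0.999 ± 0.19 (SE) in PR2 against PR1 (limma adjusted p = 0.0060). MYO1E, a myosin linked to class II transport in mouse dendritic cells, rose by 1.40 ± 0.20 (SE) in PR2 against parental cells (limma adjusted p = 0.00085). RAB7A itself had 97.99, 94.3 and 94.5 FPKM in PR1, 99.6, 106 and 119 FPKM in PR2, and 165, 158 and 160 FPKM in parental cells. It fell by 0.75 ± 0.13 (SE) in PR1 against parental cells (limma adjusted p = 0.0043).

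CD74 also acts as a surface receptor for the cytokine MIF, with CD44 as its signalling partner. MIF had 2015, 1569.7 and 1157 FPKM in PR1, 1453, 1389.5 and 1142 FPKM in PR2, and 1699, 2358 and 1744 FPKM in parental cells, and it passed the test in none of the 3 comparisons. Of 4 tested genes in this list, 1 was called higher and 0 lower in PR1 against parental cells, 1 higher and 1 lower in PR2 against parental cells, and 0 higher and 1 lower in PR2 against PR1. Over all rows the shares called higher and lower were 7.56% and 7.98%, 13.6% and 9.83%, and 11.0% and 8.92% in these comparisons. With 4 genes, 1 call is already 25.0% of the list, so nothing is read from the counts. CD44 had 83.9, 67.7 and 54.5 FPKM in PR1, 92.8, 68.2 and 72.4 FPKM in PR2, and 53.6, 35.4 and 30.2 FPKM in parental cells. CD44 rose by 0.98 ± 0.24 (SE) in PR2 against parental cells (limma adjusted p = 0.015, up to 0.059 with a library left out). In PR1 against parental cells it rose by 0.79 ± 0.24 (SE, limma adjusted p = 0.049, up to 0.17 with a library left out), and the adjusted p was 0.0036 with the letter as a block. DDT, the MIF homologue that also binds CD74, accounted for the lower calls, and these were lost when single libraries were left out.

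Markers of professional antigen-presenting and blood cells, which carry class II at all times, were summed beside these values. The summed level of the 23 markers with a row was 3.92 to 4.73 FPKM in PR1, 6.21 to 7.51 FPKM in PR2 and 8.56 to 16.7 FPKM in parental cells, and only CD14, CD83 and CD40 reached 1 FPKM in 3 libraries. PTPRC, the pan-leukocyte antigen CD45, was at most 0.0196 FPKM in any library, while CD74 reached 284 FPKM. TYROBP and CLEC9A, markers of myeloid and dendritic cells, were listed at 0 in all 9 libraries, as was AIF1, which lies in the MHC stretch. A row at 0 in every library can be a failed estimate, so these 3 zeros are not read as absence. Of the 24 markers, 1 lay only in a combined row and was left out of the sum. CD14, a co-receptor for lipopolysaccharide, fell by 1.55 ± 0.26 (SE) in PR1 (limma adjusted p = 0.0033) and fell by 1.86 ± 0.26 (SE) in PR2 (limma adjusted p = 0.00070), both against parental cells. CD40, a costimulatory receptor of antigen-presenting cells, had 0.209, 0.586 and 0.150 FPKM in PR1, 1.503, 3.53 and 3.23 FPKM in PR2, and 2.97, 5.13 and 4.30 FPKM in parental cells. CD40 fell by 1.96 ± 0.25 (SE) in PR1 against parental cells (limma adjusted p = 0.00086) and rose by 1.48 ± 0.25 (SE) in PR2 against PR1 (limma adjusted p = 0.0031), with PR1 lowest as in CD74. CD83, a marker of mature dendritic cells, had 2.17, 1.98 and 1.70 FPKM in PR1, 3.61, 2.15 and 1.77 FPKM in PR2, and 1.51, 1.71 and 1.63 FPKM in parental cells. Its log2 difference from parental cells was 0.17 ± 0.19 (SE) in PR1 and 0.39 ± 0.19 (SE) in PR2, and it passed the test in none of the 3 comparisons. In bulk RNA, fewer cells that express a gene and less RNA per cell cannot be told apart.

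Alveolar type II markers moved with the groups as well, in another order than CD74. Their summed level was 490 to 643 FPKM in PR1, 167 to 235 FPKM in PR2 and 327 to 447 FPKM in parental cells, so PR2 was lowest. SFTPB, surfactant protein B, had 3.46, 6.01 and 4.997 FPKM in PR1, 0.0207, 0.0352 and 0.0204 FPKM in PR2, and 54.3, 143.8 and 40.6 FPKM in parental cells. Most of the sum came from LPCAT1, SLC34A2 and NKX2-1. LPCAT1, a lysolipid acyltransferase of surfactant synthesis, had 253, 264 and 252 FPKM in PR1, 90.4, 131 and 128 FPKM in PR2, and 91.2, 75.7 and 59.5 FPKM in parental cells. SLC34A2, a phosphate transporter, had 113, 190.2 and 243 FPKM in PR1, 5.70, 15.3 and 11.1 FPKM in PR2, and 128, 138 and 148 FPKM in parental cells. Of 7 tested markers, LPCAT1 and NKX2-1 were called higher in PR1 against parental cells (28.6%, beside 7.56% of all rows) and SFTPB lower (14.3%, beside 7.98%). LPCAT1 was also higher in PR2 against parental cells (14.3%, beside 13.6%) and 4 were lower (57.1%, beside 9.83%), and in PR2 against PR1, 0 were higher (beside 11.0%) and 6 lower (85.7%, beside 8.92%). SFTPC, surfactant protein C, was listed at 0 in 8 libraries and at 0.0435 FPKM in PR1 C. Whether the state that these markers read has a part in the class II values was not tested.

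Across the 9 libraries, the genes whose log2(FPKM + 1) ran most like that of CD74 were NOTCH3 (Pearson r = 0.98), ALDH1L1 (0.97), OLFM1 (0.97), SERPINA1 (0.94), MX1 (0.94) and FABP6 (0.94), among 398 rows with a wide spread. The 9 points form 3 levels, 1 per group, so r largely measures how well a gene shares the order PR1, PR2, parental from low to high. NOTCH3, a Notch receptor, had 1.34, 1.89 and 1.57 FPKM in PR1, 5.10, 5.89 and 4.29 FPKM in PR2, and 13.9, 12.7 and 11.8 FPKM in parental cells. MX1, an interferon-induced antiviral GTPase, had 0.522, 1.16 and 0.609 FPKM in PR1, 4.70, 7.33 and 6.61 FPKM in PR2, and 8.72, 7.24 and 9.24 FPKM in parental cells. The most opposite were MARVELD1 (r = -0.97), CRIP2 (r = -0.96) and LEPREL1 (r = -0.96), which were highest in PR1. CRIP2, a LIM domain protein, had 68.6, 77.6 and 48.3 FPKM in PR1, 24.7, 19.7 and 16.5 FPKM in PR2, and 5.59, 5.05 and 3.30 FPKM in parental cells. Among the chosen genes with values above 0, r with CD74 was 0.73 for the HLA-DRB1,HLA-DRB5 row, 0.40 for CIITA, 0.36 for RFXAP, -0.23 for CTSS, -0.81 for RFX5 and -0.90 for IFI30. The rows named as most like CD74 had higher r, but they were picked by r itself from the 398. HLA-DRA, HLA-DMA, HLA-DMB and the other class II rows at 0 could not be compared with CD74.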

How the data were processed

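Per the submitters' processing notes, the authors used TopHat2 2.0.14, Cufflinks 2.2.1 and Cuffdiff 2.2.1 on the builds GRCh37 and hg19; read depth and annotation: not given in the sources used here. Here the deposited values are taken as FPKM, an inference, since the header names no unit. Strand is not stated, and 704 rows combine several genes. Columns of other samples numbered 0. From the deposited FPKM values, log2(FPKM + 1) was compared with limma 3.58.1 in R 4.3.3, with 1 mean per group over 9 libraries and an intensity trend. Rows at 1 FPKM or more in 3 libraries were tested, with two-sided p-values adjusted by Benjamini-Hochberg over 12011 rows at a threshold of 0.05. The fit was tested on simulated data.

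The 10 genes and all lists were chosen with earlier results of these data known. Named genes are the 10, up to 4 called genes per list and comparison by size, the receptor chains and IRF1, and the rows most and least like CD74. MIF and the cell markers beside the results are named for their roles. A gene that the rule named is not reported here. Same-letter libraries deviated together in PR1 and parental cells (r = 0.311, 0.477 and 0.163 for A, B and C) and in PR2 and PR1 (0.527, 0.544 and 0.254). In PR2 and parental cells the C libraries did not (0.296, 0.417 and 0.014). The main fit did not pair the letters. Pairing entered only the differences within letters and the alternative with the letter as a block. Alternatives were a pseudocount of 0.1, a minimum of 5 FPKM or none, quantile normalization, the letter as a block, fits of 2 groups, and leaving out each library or the 3 A libraries.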

Additional observations from a re-analysis of the deposited data

Results flagged for a closer look

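CD74 drew attention because its difference from parental cells was not the same size in the derivatives. The log2 difference was -5.05 in PR1 and -2.24 in PR2, and the difference between them, PR2 minus PR1, was 2.81 (limma adjusted p = 0.00064). PR2 was higher than PR1 within 3 of 3 letters. The parental libraries drop out of that difference, but not of the spread that its test used. With only PR1 and PR2 fitted, the limma adjusted p was 0.0029. The lower CD74 of both derivatives had been seen before, so the comparison is not independent of that choice.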

How the results depend on the processing

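For the 7 class II genes, 328 differences were recomputed, and none changed sign. In PR2 against PR1, 10 of them newly passed the threshold, all in CIITA, the HLA-DRB1,HLA-DRB5 row or CTSS. The comparisons with parental cells were read here by value only, where 5 moved by more than the spread between libraries, all with a pseudocount of 0.1. Genes of the other lists were checked by the range of their adjusted p. The rows called in PR1 against parental cells numbered 1866, and 1207 with a minimum of 5 FPKM, 3088 with a replicate block for the letter, and 1014 to 2016 with a library left out. In PR2 against parental cells they numbered 2814, and 1811 with a minimum of 5 FPKM and 1670 to 2887 with a library left out. In PR2 against PR1 they numbered 2395, and 1573 with a minimum of 5 FPKM, 3789 with the replicate block, and 1307 to 2417 with a library left out. Of the 7 class II genes, 1 passed in PR2 against PR1, and 3 did with a pseudocount of 0.1, 3 with the replicate block, 4 without the 3 A libraries, and 1 to 3 with a library left out. Leaving out 1 library keeps 2 in its group and lets the other groups set much of the spread. FPKM without read depth gives no counting interval, so values under 1 FPKM, as in CIITA and the HLA-DRB1,HLA-DRB5 row of the derivatives, have a precision that is unknown here.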
